A study of Mus musculus with 3 samples.

Results

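The macrophages described here carried *Cx3cr1* transcripts and no detected *Arg1*, and 285 of the 44693 cell barcodes of the series met the rule that defines them. They were picked barcode by barcode from the counts. Each had at least 1000 unique molecular identifiers (UMIs, the barcodes that stand for single captured transcripts), at most 10% mitochondrial UMIs, and at least 0.8% of UMIs in 9 macrophage genes (*Lyz2*, *C1qa*, *C1qb*, *C1qc*, *Cd68*, *Adgre1*, *Fcgr1*, *Csf1r* and *Ms4a7*). Less than 0.5% of UMIs came from the fibroblast genes *Dcn* and *Col1a2*, and less than 1% from the neutrophil genes *S100a8* and *S100a9*. *Arg1*, *Lyve1*, *Cd163*, *Slamf7*, *Lyz1* and *Chil3* were all at 0, and *Cx3cr1* had at least 2 UMIs. The reference was the same gate with *Cx3cr1* at 0. Because measured values chose the cells, the levels of these 20 genes in them are part of the definition and no result is drawn from those levels.

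*Cx3cr1* encodes the receptor for fractalkine (*Cx3cl1*), a chemokine with a CX3C motif that sits on the surface of endothelial and epithelial cells and can be shed by the proteinases Adam10 and Adam17. The receptor marks patrolling monocytes, microglia and many tissue macrophages. Classical monocytes, which enter wounds through the receptor Ccr2, can gain *Cx3cr1* as they mature into macrophages. Arginase 1, the product of *Arg1*, is a widely used marker of repair-phase macrophages. Macrophages also present antigen on MHC class II molecules and shape the wound infiltrate through the CC chemokines they secrete.

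The cells came from healing dorsal skin wounds of adult male mice of the inbred strain C57BL/6J, taken 3, 7 or 14 days after injury, with no treatment or genetic change in any group. Each day had 1 library of unsorted cells dissociated from pooled wound tissue, so the animals within a library cannot be told apart and differences between days are unreplicated. Barcodes numbered 5158 on Day 3, 22924 on Day 7 and 16611 on Day 14, and the summed UMIs 38133650, 120940799 and 112713257. Between 19 and 111 barcode sequences recurred in a pair of libraries, and none of the 285 cells had one of them.

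The *Cx3cr1* cells numbered 19 on Day 3, 215 on Day 7 and 51 on Day 14, among 998, 6738 and 2686 cells of the macrophage gate. They made up 1.90% (95% exact binomial interval 1.15 to 2.96%), 3.19% (2.78 to 3.64%) and 1.90% (1.42 to 2.49%) of that gate. Intervals here and below cover counting error only. A minimum of 2 UMIs picks deeply sequenced cells, so every gated cell was also thinned at random to 1000 UMIs. The 6 limits at 0 were applied to the thinned counts. A thinned cell can therefore meet the rule although it had UMIs of *Arg1* or another of the 6 genes before. Before thinning, all 6 genes were at 0 in 141 of 998, 2451 of 6738 and 799 of 2686 gated cells. On Day 3, 5 thinned cells met the rule (0.501%, 0.163 to 1.17%), compared with 76 (1.13%, 0.890 to 1.41%) on Day 7 and 23 (0.856%, 0.544 to 1.28%) on Day 14. These 3 thinned intervals overlapped. With at least 1 *Cx3cr1* UMI in place of 2, the thinned shares were 3.51% (2.46 to 4.84%), 5.36% (4.83 to 5.92%) and 3.39% (2.74 to 4.14%). The Day 7 and Day 14 intervals then did not overlap, nor did those without thinning.

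Most macrophages with *Cx3cr1* did not meet the rule. Of the 777 gated cells with at least 2 *Cx3cr1* UMIs, 265 also had *Slamf7*, 217 *Arg1*, 74 *Lyz1*, 66 *Chil3*, 29 *Cd163* and 8 *Lyve1*. *Arg1*, a urea-cycle enzyme, was found in 68 of the 123 such cells of the Day 3 library, in 149 of 499 for Day 7 and in 0 of 155 for Day 14. After thinning, a *Cx3cr1* UMI was seen in 9.16% of gated cells with *Arg1* at 0 and 6.28% of those with *Arg1* on Day 3. On Day 7 the shares were 8.03% and 6.42%, so *Cx3cr1* was present in *Arg1*-positive macrophages as well. On Day 14 only 10 gated cells had *Arg1*. Of these, 4 (40.0%, 12.2 to 73.8%) had a *Cx3cr1* UMI before thinning and 0 after it, which allows a share of up to 30.9%, so no difference from the 5.16% of cells without *Arg1* was detectable.

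*Cx3cr1* was seen more often in the macrophage gate than in the fibroblast gate of each library and the neutrophil gates of Days 3 and 7, while its interval overlapped that of barcodes with dendritic cell genes on Day 3 and of the T cell gate on Day 14. With all cells thinned to 1000 UMIs, 7.41% (5.87 to 9.22%), 7.54% (6.92 to 8.20%) and 5.14% (4.33 to 6.04%) of gated macrophages had a *Cx3cr1* UMI on Days 3, 7 and 14. In the fibroblast gate, which should lack the receptor, the shares were 0 of 433 cells, 0.735% of 7344 and 0.227% of 7937. In the neutrophil gate they were 0.391% of 512 cells and 2.22% of 225 cells on Days 3 and 7. Barcodes with the dendritic cell genes *Cd209a* or *Flt3* were nearer, at 6.78% of 177 (3.55 to 11.5%), 2.98% of 537 and 1.19% of 419, and the Day 3 interval overlapped that of the macrophages. That gate set no limit on macrophage genes, so the same barcode can be in both gates. Barcodes shared by the 2 gates were not counted. In the T cell gate the shares were 1.74% of 115 (0.211 to 6.14%) on Day 7 and 2.86% of 175 (0.934 to 6.54%) on Day 14. Before thinning, median depth was 5105.5, 3019.5 and 3793 UMIs in the macrophage gate, 42699, 10371 and 10257 in the fibroblast gate, 1447, 1428 and 1247 in the neutrophil gate, and 7680, 3699 and 5214 in the *Cd209a* or *Flt3* gate. Unthinned shares with a *Cx3cr1* UMI were 23.4%, 17.5% and 14.1% in macrophages, 3.93%, 3.83% and 1.16% in fibroblasts, and 28.8%, 10.2% and 3.82% in the *Cd209a* or *Flt3* gate.

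**Figure D1:**
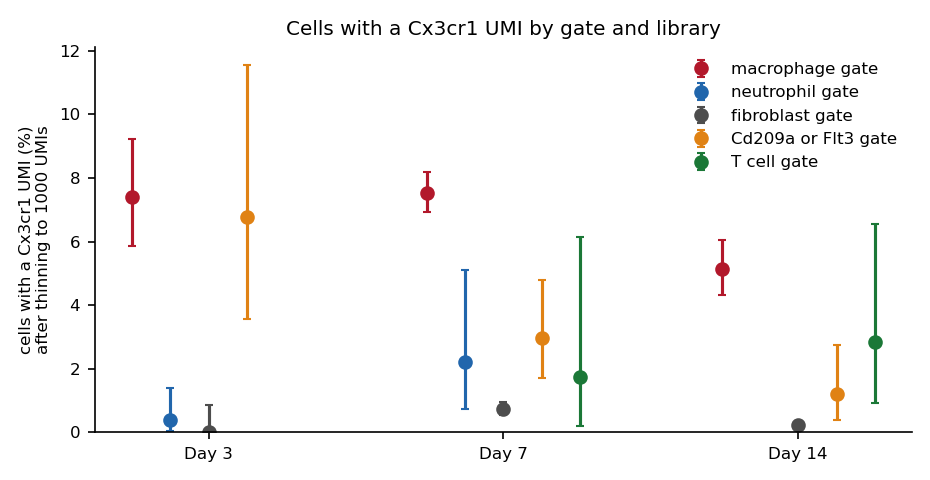
Share of cells with a *Cx3cr1* UMI (%) after thinning to 1000 UMIs, by library and gate, with exact binomial 95% intervals; gates with under 50 cells (neutrophil gate on Day 14, T cell gate on Day 3) are not drawn. The macrophage gate sits at 5.14 to 7.54% in the 3 libraries, the *Cd209a* or *Flt3* gate at 6.78, 2.98 and 1.19%, and the drawn values of the neutrophil, fibroblast and T cell gates reach at most 2.86%.

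The ligand was scarce. *Cx3cl1* had 31, 210 and 310 UMIs over all barcodes on Days 3, 7 and 14, or 0.813, 1.74 and 2.75 CPM (UMIs of a gene relative to the summed UMIs of the same barcodes, on the usual CPM scale). It was at 0 UMIs in the *Cx3cr1* cells of each library. In the endothelial gate the level was 5.65, 12.4 and 14.1 CPM, from 2, 27 and 23 UMIs. In the keratinocyte gate it was 6.12 CPM on Day 7 (3 UMIs) and 8.36 CPM on Day 14 (52 UMIs). The fibroblast gate held the most *Cx3cl1* UMIs of the gates counted, 17, 111 and 182, at a level of 0.840, 1.41 and 2.17 CPM. The shedding proteinases *Adam10* and *Adam17* had 120.8 and 173.6 CPM in the Day 3 *Cx3cr1* cells, 154.1 and 159.4 CPM on Day 7, and 73.6 and 152.0 CPM on Day 14.

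The rule sets the lowest *Cx3cr1* count, so its counts are given as a description only. In 155 of the cells it had exactly 2 UMIs, in 67 it had 3 and in 63 more than 3, up to 16 in a Day 7 cell. Median depth was 5960, 3193 and 3812 UMIs per cell, with 2209, 1341 and 1447 genes. Markers of Langerhans, lymphoid, mast, endothelial, pericyte and Schwann cells had at most 14 UMIs per class and library in the cells paired below. Keratinocyte markers had 0, 4 and 21 UMIs, the last in 10 of 51 cells, against 0, 3 and 11 in their partners. The 4 fibroblast markers outside the rule (*Col1a1*, *Col3a1*, *Lum* and *Postn*) summed to 293.1, 2091 and 2874 CPM in these cells and 334.6, 2151 and 2403 CPM in their partners. *Gm42418*, an abundant transcript that overlaps ribosomal RNA sequence, took 4.49, 15.9 and 9.15% of the cells' UMIs.

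To ask what set the *Cx3cr1* cells apart from macrophages without the transcript, each was paired with the reference cell of the same library nearest in total UMIs, within 10%. This gave 16, 215 and 51 pairs, and 3 Day 3 cells found no partner. Counts were summed per library, and the 6 sums were compared with edgeR's quasi-likelihood test with the library as a block. The replicate is thus the library, each from another day, and p-values ask whether a difference recurred across the 3. Of 3014 genes tested, 12 were higher (0.398%) and 28 lower (0.929%) in *Cx3cr1* cells at a Benjamini-Hochberg adjusted p of 0.05, and the median log2 difference over all tested genes was 0. Adjusted p below come from that fit unless another setting is named beside them. Of the 40 genes, 38 had the same sign in all 3 libraries. The exceptions, named after their values were seen, were *Lpcat2* and *Spp1*. On Day 3 the sign of *Lpcat2* and of *Cd36* rests on equal UMIs in both sets (3 and 7) and on the totals alone, and that of *Pmp22* on 0 against 1 UMI. Of the 40 genes, 39 also passed without the Day 3 library, 10 without Day 7 and 6 without Day 14.

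**Figure D2:**
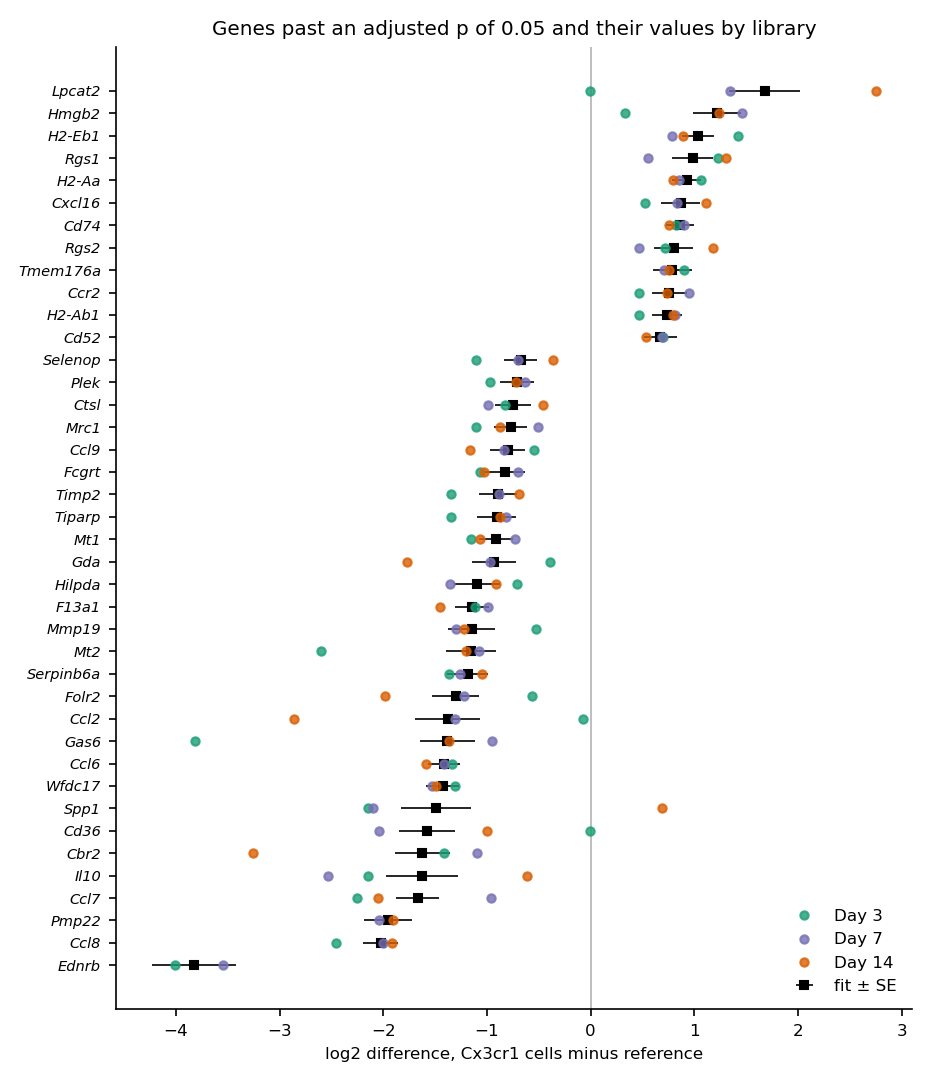
Log2 difference of *Cx3cr1* cells minus depth-matched reference cells for the 40 genes past an adjusted p of 0.05; black points are the fit with its standard error and coloured points the 3 libraries. The values run from -3.83 for *Ednrb* to 1.68 for *Lpcat2*, points of 1 gene mostly lie on 1 side of 0, and a library at 0 UMIs in 1 of its sets has no point.

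Some genes of MHC class II presentation were higher in the *Cx3cr1* cells. The class II molecule is a pair of an alpha and a beta chain (*H2-Aa* with *H2-Ab1*; *H2-Eb1* is another beta chain), and *Cd74* is the invariant chain that guides it to the compartment where peptide is loaded. Of 7 genes of the pathway tested, 4 were higher and none lower, with a median log2 difference of 0.74. *H2-Eb1* had 2735, 2303 and 6797 CPM in *Cx3cr1* cells on Days 3, 7 and 14, against 1023, 1346 and 3664 CPM in the reference. It was higher in each library, although the ranges over the days overlapped, and the log2 difference was 1.03 ± 0.15 (SE; n = 3 libraries; edgeR adjusted p = 8.392e-04). *H2-Aa* had 3497, 3264 and 8469 CPM against 1673, 1809 and 4905 CPM, a log2 difference of 0.93 ± 0.14 (adjusted p = 8.392e-04). *Cd74* stood at 6067, 4565 and 11910 CPM against 3434, 2442 and 7048 CPM (0.86 ± 0.13; adjusted p = 0.00119).

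*H2-Ab1* followed the same pattern, with 1885, 2047 and 5139 CPM against 1358, 1169 and 2982 CPM (0.74 ± 0.14; edgeR adjusted p = 0.0122). The genes that edit and load peptide did not pass the test. *H2-DMa* had a log2 difference of 0.28 and *H2-DMb1* of 0.43, with adjusted p of 0.690 and 0.541. *Ctss*, the cathepsin that trims the invariant chain, was at -0.01 (adjusted p = 0.997). Without the Day 14 library none of *H2-Eb1*, *H2-Aa*, *Cd74* and *H2-Ab1* passed (adjusted p 0.0507 to 0.316), and without the Day 7 library only *H2-Eb1* did (0.0118), while all 4 passed without Day 3. Over the 14 alternatives run, the adjusted p of *H2-Eb1* ranged from 1.473e-08 to 0.9998, the last without the library block, and its log2 difference from 0.81 to 1.18. Of these alternatives *H2-Eb1* passed in 11, *H2-Aa* in 10, *Cd74* in 9 and *H2-Ab1* in 8, and none of the 4 passed with at least 3 *Cx3cr1* UMIs (adjusted p 0.110 to 0.207).

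The promoters of these genes are shown because class II genes are known to share a short promoter element, the Y box, whose core is ATTGG, or CCAAT on the other strand, and whose neighbouring elements recruit the coactivator Ciita. The 3 *H2* genes lie within a stretch of mouse chromosome 17 (*H2-Ab1* at 34263227 to 34269418, *H2-Aa* at 34282744 to 34287823 and *H2-Eb1* at 34305867 to 34316674, GRCm38.p6). Promoters of *H2-Aa* and *H2-Eb1* were found in the RefSeq promoter set used, 2 of 3 genes looked up. The lookup by the symbol *H2-Ab1* gave none. Both promoters are printed 5′ to 3′ on the strand of the gene, with ATTGG and CCAAT in capitals. Each stretch was cut around its first ATTGG, so the central position of that motif is no result.
*H2-Aa*, chr17:34287819-34287919, minus strand: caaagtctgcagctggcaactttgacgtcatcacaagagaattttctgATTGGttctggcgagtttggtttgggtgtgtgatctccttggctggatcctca
*H2-Eb1*, chr17:34305760-34305860, plus strand: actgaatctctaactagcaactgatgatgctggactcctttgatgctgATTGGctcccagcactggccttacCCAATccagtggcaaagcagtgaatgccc
In *H2-Aa* the motif starts 48 bases before the annotated start. In *H2-Eb1* ATTGG starts 59 and CCAAT 35 bases before it. That CCAAT lies in the opposite orientation, and whether any of these matches is a Y box was not tested. On either strand, the letters occur in 37.4% of 32851 mouse promoters of 300 bases, so a match alone is common.

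*Ciita*, the coactivator, was below the count filter of the test. It had 6, 31 and 14 UMIs in the paired *Cx3cr1* cells and 0, 9 and 2 in the reference, so the *Cx3cr1* cells were higher in each library. With no filter on low counts the log2 difference was 2.21 ± 0.48 (edgeR adjusted p = 0.00170), and without the Day 14 library it was 2.05 with an adjusted p of 0.443. The fit with no filter tested 13882 genes and called 25 higher (0.18%) and 55 lower (0.396%). For the same sums its edgeR adjusted p was 1.473e-08 instead of 8.392e-04 for *H2-Eb1* and 5.6e-30 instead of 9.728e-07 for *Ccl8*. For *Cd52* it was 0.0562 instead of 0.0404. Here and below, adjusted p of the fit with no filter are thus not on the scale of the main fit.

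The class II levels were spread unevenly over the cells. As a share of each cell's UMIs, *H2-Aa*, *H2-Ab1*, *H2-Eb1* and *Cd74* together had a median of 1.06% in *Cx3cr1* cells and 0.0214% in reference cells on Day 3, 0.885% and 0.0490% on Day 7, and 2.72% and 1.55% on Day 14. The highest *Cx3cr1* cell of each library held 3.78, 5.09 and 8.22%. None of the 4 genes was detected in 4 of 16, 33 of 215 and 2 of 51 *Cx3cr1* cells, against 5, 61 and 2 reference cells. After thinning to 1000 UMIs a class II UMI was seen in 11 of 16, 163 of 215 and 47 of 51 *Cx3cr1* cells and 8, 108 and 43 of as many reference cells. In the fibroblast gate the shares were 3.00, 18.1 and 17.7%. Fibroblast barcodes were deeper before thinning, at medians of 42699, 10371 and 10257 UMIs against 5105.5, 3019.5 and 3793 in the macrophage gate. As a mean share of UMIs, class II genes took 0.00370, 0.0596 and 0.0813% in the fibroblast gate on Days 3, 7 and 14. That mean was 1.17, 1.30 and 3.09% in *Cx3cr1* cells and 0.856, 0.663 and 1.73% in reference cells. The Day 7 fibroblast mean was thus above the Day 7 reference median of 0.0490%. How much of the class II signal in macrophage barcodes is background was not tested. A cell with none of the class II UMIs may still hold the transcript at this depth. The 4 genes are those called higher, so the shares are not separate evidence for them. These are descriptions over cells of 1 library, which are not replicates.

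**Figure D3:**
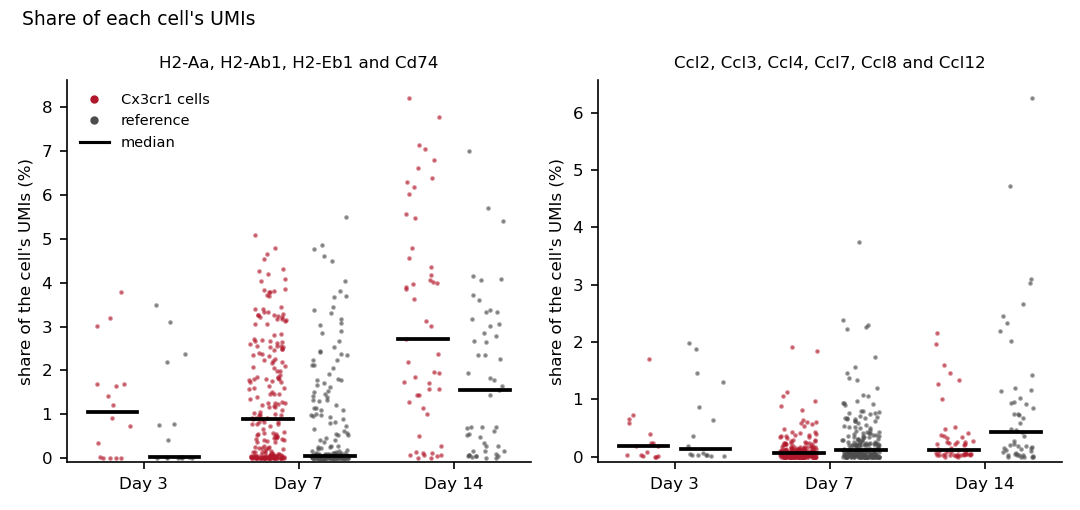
Share of each cell's UMIs (%) taken by 4 MHC class II genes (left) and 6 CC chemokine genes (right), 1 point per cell, with black lines at the median, for *Cx3cr1* cells and depth-matched reference cells by day. The class II medians of *Cx3cr1* cells (1.06, 0.885 and 2.72%) lie above those of the reference on each day, and the chemokine medians (0.182, 0.0566 and 0.112%) above it on Day 3 and below it on Days 7 and 14.

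Dendritic cells also carry class II genes, so their markers are given beside that result. The mature dendritic cell markers *Ccr7*, *Fscn1* and *Ccl22* summed to 3, 29 and 26 UMIs in the *Cx3cr1* cells of Days 3, 7 and 14 and to 0, 37 and 0 in the reference. On Day 14 the 26 UMIs came from 5 of 51 cells. The conventional dendritic cell 2 markers *Cd209a*, *Flt3*, *Ccl17* and *Kmo* summed to 7, 11 and 2 UMIs against 9, 13 and 4, and the dendritic cell 1 markers *Xcr1*, *Clec9a* and *Wdfy4* to 4, 19 and 8 against 2, 19 and 6. When cells with any UMI of these or of lymphoid, mast, vascular, epithelial or Schwann cell markers were left out, 6, 155 and 23 pairs and 1256 tested genes remained. In that setting *H2-Eb1* and *H2-Aa* passed, with log2 differences of 1.06 (edgeR adjusted p = 0.0203) and 0.89 (0.0380). *Cd74* (0.80) and *H2-Ab1* (0.81) were then at an adjusted p of 0.0534. A cell with none of these UMIs may still hold such transcripts at this depth, and the part of dendritic cells in the class II levels was not tested.

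*Ccr2*, the receptor that draws monocytes out of the blood, was higher in the *Cx3cr1* cells. It had 1846, 731.9 and 426.6 CPM on Days 3, 7 and 14 against 1328, 379.5 and 255.0 CPM in the reference. The difference was positive in each library (0.76 ± 0.17 on the log2 scale; edgeR adjusted p = 0.0254). It passed in 5 of 14 alternatives and not without the Day 7 library (0.450), without Day 14 (0.305), with at least 1 *Cx3cr1* UMI (0.47; 0.160), without cells with a UMI of another cell type (0.55; 0.451) or with DESeq2 (0.231), and the adjusted p ranged from 0.00230 to 0.9998. *Ccr2* is 1 of 6 genes named as markers of these cells with results already in view, so its direction is no independent evidence. The other marker genes did not pass: *Aif1*, an actin-bundling protein of macrophages and microglia, was at 0.50, *Lst1* at 0.35, *Ms4a6b* at 0.08 and the lipoprotein gene *Apoc2* at 1.09 (adjusted p 0.283, 0.520, 0.954 and 0.249). The name of these cells therefore rests on *Cx3cr1* and the macrophage gate genes and not on these 4 markers.

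Genes of classical monocytes were not called higher beside *Ccr2*. Of 6 tested, none was higher, and *F13a1*, the A subunit of clotting factor XIII, was lower, with 713.1, 442.3 and 451.1 CPM against 1555, 877.2 and 1231 CPM (-1.14 ± 0.16; edgeR adjusted p = 5.248e-04). *Ms4a4c* was at 0.86 (adjusted p = 0.283) and *Fn1*, fibronectin, at -0.86 (0.132). Of 9 patrolling monocyte genes only 1 had enough counts to test, and it did not pass. Of 7 chemokine receptors tested, *Ccr2* alone passed, and none of the 7 integrins or of the 8 Fc receptor and signalling genes did. *Fcgrt*, the neonatal Fc receptor, was outside that list and lower (-0.83 ± 0.20; edgeR adjusted p = 0.0404), and was named after its values were seen. It passed in 4 of 14 alternatives.

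The other genes higher in *Cx3cr1* cells came from several functions. *Hmgb2*, a chromatin protein abundant in cycling cells, had 185.6, 267.0 and 220.7 CPM against 147.6, 96.9 and 93.2 CPM (1.22 ± 0.23; edgeR adjusted p = 0.00885). It passed in 6 of 14 alternatives and not with all reference cells (0.73; 0.0876), without cells with a UMI of another cell type (0.73; 0.504), with DESeq2 (0.266), without Day 7 (0.592) or without Day 14 (0.278). *Cxcl16*, a membrane-bound chemokine like fractalkine, had 410.3, 454.3 and 392.3 CPM against 285.4, 254.8 and 181.5 CPM (0.87 ± 0.19; 0.0230), and its ranges did not overlap, but it passed in 6 of 14 alternatives and neither without Day 7 (0.354) nor without Day 14 (0.512). *Rgs1* (0.98) and *Rgs2* (0.80), which dampen signalling by G protein-coupled receptors, *Tmem176a* (0.79), a membrane protein of antigen-presenting cells, and the surface glycoprotein *Cd52* (0.67) were higher in each library. Of the 14 alternatives *Rgs1* passed in 9, *Rgs2* in 4, *Tmem176a* in 3 and *Cd52*, named after its values were seen, in 1. *Rgs2* ranged from 0.24 to 1.22 over them. *Lpcat2*, an enzyme of platelet-activating factor synthesis, differed by 1.68 ± 0.34 (0.0145) but was level on Day 3, at 29.3 and 29.5 CPM, and passed in 5 of the 10 alternatives that tested it.

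**Figure D4:**
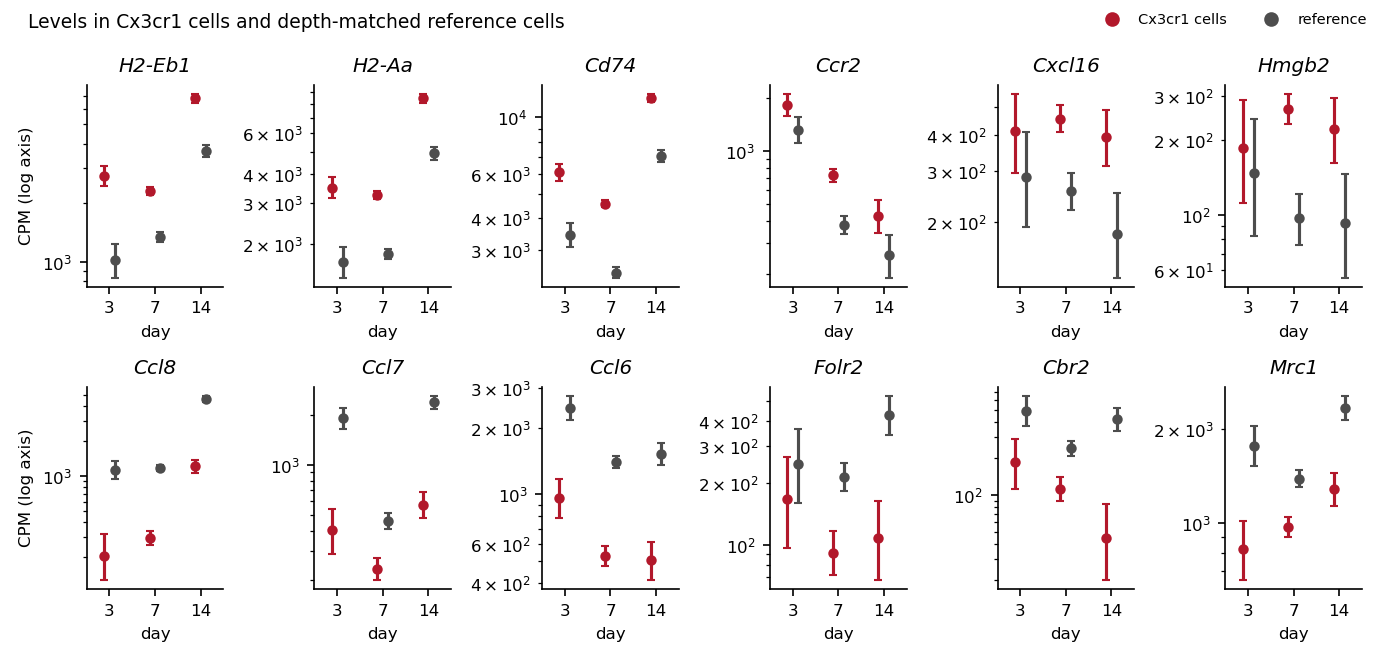
Level (CPM, log axis) of 12 genes in *Cx3cr1* cells (red) and depth-matched reference cells (grey) of each library, by day, with exact Poisson 95% intervals. *H2-Eb1*, *H2-Aa*, *Cd74*, *Ccr2*, *Cxcl16* and *Hmgb2* are higher in the red points of all 3 libraries, and *Ccl8*, *Ccl7*, *Ccl6*, *Folr2*, *Cbr2* and *Mrc1* lower.

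*Ccl8*, *Ccl7*, *Ccl2*, *Ccl6* and *Ccl9*, secreted chemokines of the CC family, were lower in the *Cx3cr1* cells, while *Ccl3* (0.09), *Ccl4* (-0.05) and *Ccl12* (-0.25) did not pass (edgeR adjusted p 0.964, 0.965 and 0.912). *Ccl8*, a monocyte chemoattractant protein, had 205.1, 292.2 and 1216 CPM in *Cx3cr1* cells against 1132, 1170 and 4601 CPM in the reference, the lowest adjusted p of the fit (log2 difference -2.03 ± 0.17; edgeR adjusted p = 9.728e-07). It was lower in each library and passed without any of the 3, but its Day 3 UMIs in *Cx3cr1* cells all came from 1 cell. *Ccl7*, a ligand of Ccr2, had 400.5, 235.1 and 573.7 CPM against 1899, 457.8 and 2374 CPM (-1.67 ± 0.21; 9.657e-05). Without the Day 14 library its adjusted p was 0.0562, and over 14 alternatives it ran from 7.909e-19 to 0.9998. *Ccl6*, which acts through Ccr1 and was named after its values were seen, had 967.1, 528.7 and 505.1 CPM against 2450, 1403 and 1525 CPM (-1.42 ± 0.15; 2.508e-05), and here the 2 ranges did not overlap.

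*Ccl2*, the main ligand of Ccr2, was nearly level on Day 3 and lower later, with 918.3, 127.5 and 235.4 CPM against 964.4, 317.2 and 1712 CPM (-1.38 ± 0.31; edgeR adjusted p = 0.0307). Without the Day 14 library its log2 difference was -0.74 (0.715), within a range over 14 alternatives of -2.02 to -0.74 (adjusted p 3.716e-18 to 0.9998). *Ccl9*, named after its values were seen, was also lower, with 1065, 341.4 and 225.6 CPM against 1555, 610.4 and 505.2 CPM (-0.80 ± 0.17; 0.0211), and passed in 6 of 14 alternatives. *Ccl2* (82035577 to 82037452), *Ccl7* (82045712 to 82047525) and *Ccl8* (82115185 to 82116799) lie near each other on chromosome 11 of GRCm38.p6, with *Ccl12* (82101845 to 82103399), which did not pass, between *Ccl7* and *Ccl8*. *Ccl9* (83572917 to 83578636), *Ccl6* (83587886 to 83593087) and *Wfdc17* (83704056 to 83706269) lie further along the same chromosome, with *Ccl3* and *Ccl4*, which did not pass, between *Ccl6* and *Wfdc17*. *Wfdc17*, a small secreted protein of the whey acidic protein family, had 478.7, 480.8 and 426.6 CPM against 1191, 1385 and 1202 CPM (-1.43 ± 0.16; 3.923e-05), with no overlap of the ranges and a pass without each library in turn.

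Per cell, the 6 CC chemokines of the inflammatory list (*Ccl2*, *Ccl3*, *Ccl4*, *Ccl7*, *Ccl8* and *Ccl12*) took a median of 0.182, 0.0566 and 0.112% of UMIs in *Cx3cr1* cells and 0.126, 0.110 and 0.439% in reference cells, so the median was higher on Day 3 and lower on Days 7 and 14. The sum holds the 3 genes called lower and is not separate evidence for them. Of 13 inflammatory cytokine and chemokine genes tested, 3 were lower (*Ccl2*, *Ccl7* and *Ccl8*) and none higher, with a median log2 difference of -0.27. *Il1b*, the inflammatory cytokine interleukin 1 beta, was at 0.60 and did not pass (edgeR adjusted p = 0.283). Neutrophil markers outside the rule were also at lower sums: *Csf3r*, *Retnlg* and *Cxcr2* together had 4, 39 and 5 UMIs in *Cx3cr1* cells against 9, 65 and 7 in the reference, or 39.1, 51.8 and 24.5 CPM against 88.6, 86.3 and 34.3 CPM. Of these 3 genes, 2, 1 and 2 were at 0 in the *Cx3cr1* cells of Days 3, 7 and 14. Their part in the result was not tested.

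Some genes of alternatively activated macrophages were lower. Of 7 alternative activation genes tested, 3 were lower and none higher, with a median log2 difference of -1.05. *Folr2*, folate receptor beta, had 166.1, 91.7 and 107.9 CPM against 246.0, 213.6 and 426.7 CPM (-1.30 ± 0.23; edgeR adjusted p = 0.00393). *Cbr2*, a carbonyl reductase, had 185.6, 112.9 and 44.1 CPM against 492.0, 241.5 and 421.8 CPM (-1.62 ± 0.27; 0.00237), and the mannose receptor *Mrc1* had 820.6, 972.3 and 1285 CPM against 1771, 1388 and 2344 CPM (-0.77 ± 0.16; 0.0143). For all 3 genes the highest library of *Cx3cr1* cells was below the lowest of the reference. Without the Day 14 library none of the 3 passed (adjusted p 0.278, 0.0701 and 0.278), without Day 7 neither *Folr2* (0.156) nor *Mrc1* (0.0582) did, and over 14 alternatives the adjusted p spanned 4.601e-08 to 0.9998 for *Folr2*, 1.881e-10 to 0.9998 for *Cbr2* and 1.737e-04 to 0.9998 for *Mrc1*, and the 3 genes passed in 9, 11 and 6 of them.

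The lectins *Mgl2* (-1.64; adjusted p = 0.338) and *Clec10a* (-1.06; 0.132) were in the same list and did not pass the edgeR test. Some of its genes were too sparse to be tested. *Retnla*, a secreted protein induced by interleukin 4, had 0, 8 and 3 UMIs in *Cx3cr1* cells and 0, 55 and 517 in the reference, where 8 cells of Day 14 carried all 517 and 1 of them held 33.7%. *Ear2*, a ribonuclease, had 0, 1 and 5 UMIs against 0, 55 and 48, and *Ccl24*, an eosinophil chemokine, had 1, 6 and 4 against 5, 31 and 32. With no filter on low counts the log2 differences were -5.36 for *Retnla*, -4.02 for *Ear2* and -2.59 for *Ccl24* (edgeR adjusted p 3.798e-45, 1.769e-13 and 7.611e-06). These adjusted p are not on the scale of the main fit, and *Retnla* and *Ear2* had no UMIs on Day 3 in either set. Without the Day 14 library *Ccl24* was at -2.34 (0.221). No more than 12 reference cells of a library carried *Retnla* and no more than 10 carried *Ear2*.

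Some genes of phagocytosis, lipid and matrix functions were also lower. Of 8 efferocytosis genes, 2 were lower. *Cd36*, a scavenger receptor, had 68.4, 162.1 and 93.2 CPM against 68.9, 666.2 and 186.4 CPM (-1.58 ± 0.27; edgeR adjusted p = 0.00323) and was level on Day 3. *Gas6*, the bridging ligand of Axl and related receptors, had 29.3, 188.6 and 191.2 CPM against 413.3, 363.6 and 495.4 CPM (-1.38 ± 0.26; 0.00885), with no overlap of the ranges. The receptor *Axl* was at 1.21 and did not pass (0.0605). Of 14 lipid-handling genes only *Spp1*, the secreted phosphoprotein osteopontin, passed. It had 390.8 and 502.1 CPM against 1732 and 2151 CPM on Days 3 and 7, but 206.0 against 127.5 CPM on Day 14 (-1.49 ± 0.34; 0.0307). Without Day 7 it was at -0.88 (0.757) and without Day 14 at -2.13 (5.538e-04). Over 14 alternatives *Cd36* passed in 9, *Gas6* in 11 and *Spp1* in 7. Their log2 differences ran from -1.84 to -0.64, from -1.94 to -1.10 and from -2.13 to -0.88.

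Among repair factors, *Il10*, an anti-inflammatory cytokine, had 48.8, 17.3 and 112.8 CPM against 216.5, 99.5 and 171.7 CPM (-1.63 ± 0.35; edgeR adjusted p = 0.0217), and *Igf1* was at -0.81 (0.0938). *Il10* passed in 4 of 13 alternatives and not with all reference cells (-0.97; 0.188), at 5% mitochondrial UMIs (-1.06; 0.346) or without Day 7 (-1.06; 0.563). Without Day 14 *Il10* was at -2.41 and passed (0.0381). Its Day 3 level rested on 5 UMIs in the paired cells and 16 in all 19, where 1 cell that found no partner held 68.8%. *Mmp19* (-1.15), a matrix metalloproteinase, and *Timp2* (-0.89), an inhibitor of such enzymes, were lower among 5 matrix genes, *Hilpda* (-1.09), a lipid droplet protein induced by hypoxia, among 8 hypoxia and glycolysis genes, and *Ctsl* (-0.75) among 8 cathepsins. The metallothioneins *Mt1* (-0.91) and *Mt2* (-1.15), chosen after their values were seen, were lower as a pair. Over 14 alternatives *Mmp19*, *Timp2* and *Mt2* passed in 7 each, *Hilpda* and *Ctsl* in 5 each and *Mt1* in 9. The log2 difference of *Hilpda* ran from -1.25 to -0.34 over them. Also lower were *Ednrb*, an endothelin receptor, and *Pmp22*, a membrane protein best known from myelin. *Ednrb* had 9.77, 15.9 and 0 CPM against 157.5, 187.1 and 122.6 CPM. *Pmp22* had 0, 54.5 and 137.3 CPM against 9.84, 224.3 and 515.0 CPM. None of the 7 interferon-stimulated genes, 15 myeloid transcription factors, 3 *Ms4a* genes or 2 purinergic receptors tested passed.

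The genes of brain and nerve macrophages are of interest because *Cx3cr1* marks microglia. Each of the 5 tested had a positive log2 difference, with a median of 0.55, but none passed. *Tgfbr1*, a receptor of transforming growth factor beta, was at 1.43 ± 0.36 (edgeR adjusted p = 0.0596), *Gpr34* at 0.55 and *Trem2* at 0.18. *Tmem119*, a microglial membrane protein, was below the count filter, with 4, 57 and 5 UMIs in 3, 43 and 5 *Cx3cr1* cells against 1, 8 and 0 UMIs in the reference. *Olfml3*, another gene of microglia, had 0, 35 and 13 UMIs against 2, 9 and 0. With no filter on low counts these 2 genes had log2 differences of 2.80 ± 0.51 (2.533e-05) and 2.07 ± 0.51 (0.0109), while *P2ry12* was at 0.82 (0.9999). *Tmem119* did not pass without the Day 14 library (2.68; 0.0782), nor *Olfml3* with all reference cells (1.51; 0.0502).

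*Mki67* and *Top2a* were at their highest level in the *Cx3cr1* cells of Day 7, whereas *Hmgb2* differed less between days. Of 4 proliferation genes tested all were positive and *Hmgb2* passed, and *Stmn1* was at 1.15 (edgeR adjusted p = 0.0938). *Mki67*, the Ki-67 antigen, had 2, 85 and 3 UMIs in *Cx3cr1* cells against 0, 16 and 14 in the reference, and *Top2a*, the topoisomerase of dividing cells, had 2, 70 and 8 against 1, 7 and 8. With no filter on low counts *Top2a* was at 2.09 ± 0.43 (edgeR adjusted p = 7.151e-04) and *Mki67* at 1.26 (0.147), and with at least 1 *Cx3cr1* UMI *Top2a* did not pass (1.62; 0.0587). As levels, *Mki67* had 19.5, 113 and 14.7 CPM and *Top2a* 19.5, 93.0 and 39.2 CPM in the paired *Cx3cr1* cells. The 85 *Mki67* UMIs of Day 7 came from 19 cells and 29.4% of them from 1. Whether the difference changed with the day has no residual degrees of freedom and was not tested.

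Values just inside and just outside the rule did not form a single gradient. On Day 7 the 116 cells with 2 *Cx3cr1* UMIs had 726.9 CPM of *Ccr2*, 3832 of *H2-Aa*, 2689 of *H2-Eb1*, 356.9 of *Ccl8* and 838.9 of *Mrc1*, and the 287 cells with 1 UMI had 687.9, 2996, 2031, 405.7 and 1051 CPM. The 1949 cells with none had 453.0, 2009, 1387, 1046 and 1436 CPM. The 99 cells with at least 3 had 737.1, 2672, 1902, 224.9 and 1111 CPM, so *H2-Aa* and *H2-Eb1* there were below the levels of cells with 1 or 2 UMIs and above those of cells with none. On Day 14 *H2-Aa* had 6254, 7768, 7150 and 10250 CPM in cells with 0, 1, 2 and at least 3 UMIs. On Day 14, *Ccl8* had 3037 CPM in cells with 0 *Cx3cr1* UMIs, 2543 with 1, 1852 with 2 and 357.4 with at least 3. These are values without a test. Median depth was also larger along the classes, from 2530 to 3401 UMIs on Day 7 and from 3144 to 3996 UMIs on Day 14.

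Between days, the values compare single libraries, and a gene was counted when either library reached 50 CPM and the pair together 10 UMIs. From Day 3 to Day 7, 235 of 3567 genes were higher by a log2 ratio of at least 1 (6.59%) and 594 were lower (16.7%), with a median of -0.31 over all genes. With TMM scaling factors in place of total UMIs the split was 386 higher and 263 lower, so directions near the median depend on the scaling. The higher count was 149 with at least 1 *Cx3cr1* UMI per cell, 435 with at least 3 and 430 without *Gm42418*. From Day 7 to Day 14, 240 of 3184 genes were higher (7.54%) and 276 lower (8.67%), with a median of -0.07. The lower count was 105 with at least 1 *Cx3cr1* UMI per cell, 580 with at least 3 and 418 without *Gm42418*, and the higher count 397 with at least 3. Both comparisons share the Day 7 library. The Day 3 values rest on 19 cells.

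Several monocyte genes were lower in the later *Cx3cr1* cells. *Ccr2* had 2023, 731.9 and 426.6 CPM on Days 3, 7 and 14, with log2 ratios of -1.47 (95% interval -1.68 to -1.25) and -0.78 (-1.12 to -0.45). In the matched reference the ratios were -1.81 and -0.57. *Ms4a4c* had 543.5, 152.8 and 39.2 CPM, and of 9 classical monocyte genes 5 were lower on Day 7 by at least 1 log2 unit and none higher. Over all genes 16.7% were lower and 6.59% higher by as much. From Day 7 to Day 14, 2 of 5 classical monocyte genes were lower by as much (*Fn1* and *Ms4a4c*), with a median of -0.45, against 8.67% of all genes. *Fn1* had 671.8, 484.8 and 107.9 CPM, and Day 14 over Day 7 was -2.17 on the log2 scale (-2.86 to -1.55). Each of the 3 genes was lower on each later day relative to total UMIs, but with TMM factors the Day 7 to Day 3 ratio of *Fn1* went from -0.47 to -0.19.

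Other early genes had their highest level on Day 3. *Cxcr4*, the receptor for Cxcl12, had 1396, 211.2 and 304.0 CPM, and *Il1b* had 2061, 611.0 and 784.6 CPM. *Rsad2*, an antiviral enzyme, had 241.5, 27.9 and 88.3 CPM, and 6 of 7 interferon-stimulated genes were lower on Day 7 by at least 1 log2 unit (*Ifi204*, *Isg15*, *Oasl2*, *Irf7*, *Rsad2* and *Ifit2*). Over all genes 16.7% were lower by as much relative to total UMIs, and that share depends on the scaling. *Lgmn*, a lysosomal protease, had 4386, 2407 and 1280 CPM.

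Several lipid genes were higher on Day 7 than on Day 3, and *Apoe* was higher again on Day 14. *Apoe*, apolipoprotein E, had 4567, 14330 and 23720 CPM, with log2 ratios of 1.65 (1.53 to 1.77) and 0.73 (0.68 to 0.78). The reference ratios were 0.82 and 0.26. Of 14 lipid-handling genes 7 were higher on Day 7 by at least 1 log2 unit and none lower (*Fabp5*, *Fabp4*, *Abca1*, *Gpnmb*, *Cd9*, *Apoc2* and *Apoe*). Over all genes 6.59% were higher and 16.7% lower by as much. From Day 7 to Day 14 only *Cd9* was higher by as much, *Fabp4* and *Spp1* were lower, and the median of the 14 was -0.45. *Igf1*, insulin-like growth factor 1, had 15.1, 228.5 and 421.7 CPM, from 2, 172 and 86 UMIs. Its Day 7 to Day 3 ratio of 3.92 (2.04 to 6.98) was the highest among genes past the expression limits with UMIs in both libraries. The matched reference had 118.1, 435.3 and 598.4 CPM of *Igf1*, with log2 ratios of 1.88 (1.06 to 2.85) and 0.46 against 3.92 and 0.88 in the *Cx3cr1* cells. The 4 fibroblast markers followed the same order in all *Cx3cr1* cells, at 256.6, 2091 and 2874 CPM, and were found in each cell of Days 7 and 14. In the fibroblast gate those markers had 41660, 78430 and 88870 CPM and *Igf1* 86.8, 355.9 and 519.7 CPM. The part of fibroblast RNA in the *Igf1* values was not tested.

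MHC class II levels were highest on Day 14. None of 8 genes of the pathway passed a log2 ratio of 1 between Days 3 and 7, and 5 of 8 were higher on Day 14 than on Day 7, namely *H2-Aa*, *H2-Ab1*, *H2-Eb1*, *H2-DMb1* and *Cd74*. Over all genes 7.54% were higher on Day 14 by as much. *H2-Eb1* had 2876, 2303 and 6797 CPM, and Day 14 over Day 7 gave 1.56 on the log2 scale, *H2-Aa* 4099, 3264 and 8469 CPM (1.38), *Cd74* 7760, 4565 and 11910 CPM (1.38) and *H2-Ab1* 2385, 2047 and 5139 CPM (1.33). The same ratios in the matched reference were 1.45, 1.44, 1.53 and 1.35. The 3 mature dendritic cell markers summed to 29.3, 38.5 and 127.5 CPM in the paired *Cx3cr1* cells of Days 3, 7 and 14, and their part in the day values was not tested. The Day 7 to Day 3 ratio of *H2-Ab1*, -0.22, changed sign with TMM factors (0.06) and with the mean CPM per cell (0.08).

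Several inflammatory genes were also higher on Day 14 than on Day 7. Of 13 inflammatory genes 7 were higher by at least 1 log2 unit (*Cxcl1*, *Cxcl2*, *Cxcl3*, *Ccl7*, *Ccl8*, *Tnf* and *Nlrp3*), and only *Ptgs2*, the inducible prostaglandin synthase, was lower. Over all genes 7.54% were higher and 8.67% lower by as much. *Cxcl2*, a neutrophil attractant, had 1834, 1106 and 4482 CPM, and Day 14 exceeded Day 7 by 2.02 log2 units (1.88 to 2.16). Against the matched reference, *Cxcl2* was lower in *Cx3cr1* cells on both days (log2 difference -1.05 on Day 7 and -0.27 on Day 14). *Ccl8* was higher on Day 14 in both sets, at 158.5, 292.2 and 1216 CPM in *Cx3cr1* cells, where Day 14 exceeded Day 7 by 2.06 log2 units against 1.97 in the reference. *Il10* had 120.8, 17.3 and 112.8 CPM, *Ccl2* 800.1, 127.5 and 235.4 CPM and the transcription factor *Klf2* 528.4, 215.2 and 863.0 CPM, so each was lowest on Day 7. Of 8 repair growth factors 3 were higher on Day 14 than on Day 7 (*Il10*, *Areg* and *Hbegf*) and none lower, against the same shares over all genes. *Areg* came almost wholly from 1 cell. *Aif1*, *Lst1* and *Ms4a6b* had no log2 ratio past 1 in either comparison.

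**Figure D5:**
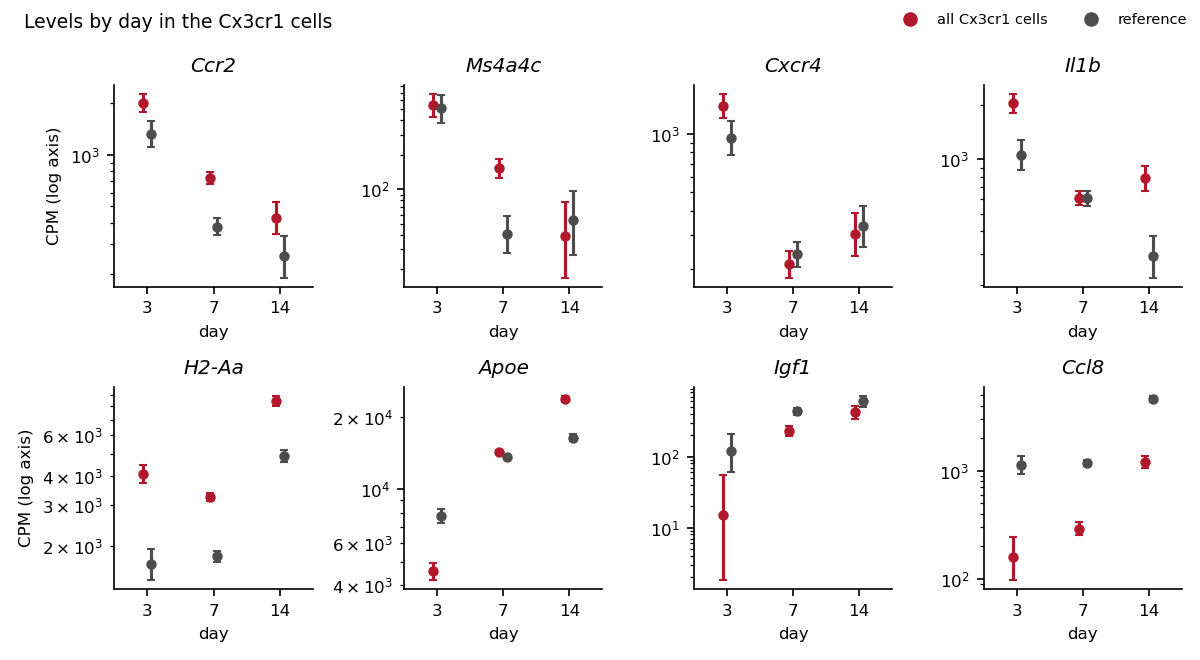
Level (CPM, log axis) of 8 genes by day in all *Cx3cr1* cells (red) and in depth-matched reference cells (grey), with exact Poisson 95% intervals and 1 library per day. *Ccr2*, *Ms4a4c*, *Cxcr4* and *Il1b* are highest on Day 3 in the *Cx3cr1* cells, and *H2-Aa*, *Apoe*, *Igf1* and *Ccl8* on Day 14.

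By size, among genes with UMIs in both libraries, the highest Day 7 to Day 3 ratios after *Igf1* belonged to *Stmn1* (3.72), a microtubule regulator, *Mpc1* (3.64), a subunit of the mitochondrial pyruvate carrier, and *mt-Atp8* (3.59), which is encoded in mitochondrial DNA. The lowest were *Slpi* (-4.45), *Ppbp* (-4.24), *Ifitm6* (-4.09) and *Hacd3* (-3.51), and a single Day 3 cell held 95.7% of the 23 *Slpi* UMIs and 90.0% of the 10 *Ppbp* UMIs. From Day 7 to Day 14 the highest were *Bmp2* (5.88), a bone morphogenetic protein, *Areg* (4.85), the epidermal growth factor receptor ligand amphiregulin, *Mylpf* (4.69), a muscle myosin light chain, and *Eln* (4.21), elastin. Fibroblast markers were found in all 51 Day 14 cells, and the part of RNA from other cells in the *Mylpf* and *Eln* values was not tested. *Areg* had 47 UMIs in 3 Day 14 cells with 91.5% in 1 of them, and *Bmp2* had 16 UMIs in 3 cells. *Kmt5b* (-3.70), *Ube2c* (-3.58), *Ifitm1* (-3.51) and *F11r* (-3.44) were lowest, and 1 Day 7 cell held 45.5% of the *Ube2c* UMIs.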

How the data were processed

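The authors deposited raw UMI counts per gene and barcode, made with Cell Ranger 6.0.0 on mm10 per the submitters' processing notes, from Chromium 3′ v3.1 libraries. Symbols were matched for 32158 of 32285 gene IDs. CPM relate a gene's UMIs to all UMIs of a summed set. Members and gene lists were chosen with earlier results of these data known. Named genes are those of the lists, the 8 highest and 8 lowest fold changes among calls with 1 sign in all 3 libraries and at least 50 CPM, and the 4 highest and lowest day ratios. Other called genes, such as *Ccl6*, *Ccl9*, *Cd52*, *Fcgrt*, *Lpcat2*, *Mt1* and *Mt2*, were named after their values were seen. Counts of 6 sums were tested with edgeR 4.0.16 (R 4.3.3; TMM, filterByExpr with a minimum of 10, quasi-likelihood test, library as block, since both sums of a pair come from 1 library). The 20 genes of the rule stayed in totals, untested. Wounds were pooled, so p-values measure only how the difference within a library varied over the 3 libraries, each of another day. The edgeR test and the ratio intervals were also run on simulated counts, whose outcome is not given here. No doublet caller was run. Values of a few genes are not reported here. Intervals (Poisson, Clopper-Pearson, conditional binomial) cover counting error at 95%. Alternatives included DESeq2 1.42.0.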

Additional observations from a re-analysis of the deposited data

Results flagged for a closer look

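For 15 listed genes the *Cx3cr1* cells stood above the reference in 1 library and below it in another, with both counting intervals off 0 and UMIs in both sets. The difference between libraries was not tested, since each day has 1 library. Each value is a log2 difference of *Cx3cr1* cells minus depth-matched reference. *Apoe* was 0.07 on Day 7 and 0.53 on Day 14 against -0.84 on Day 3. *Ctss* was 0.61 on Day 14 against -0.55 on Day 3 and -0.17 on Day 7. *Trem2* was 1.34 on Day 14 and -0.26 on Day 7. *Cd9* was 4.13 on Day 14 and -0.76 on Day 7. *Fabp5*, a fatty acid carrier, was 1.62 on Day 3 and 0.98 on Day 14 against -0.98 on Day 7.

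Among chemokines, *Cxcl1* was 3.80 on Day 3 and -0.77 on Day 7, and *Cxcl2* was 1.07 on Day 3 against -1.05 on Day 7 and -0.27 on Day 14. *Cxcl10* was 1.88 on Day 14 and -5.82 on Day 3, where 1 of 3 reference cells held 92.9% of the UMIs. *Ccl3* was 1.33 on Day 14 and -0.72 on Day 3, and *Ccl12* was 0.67 on Day 7 and -2.82 on Day 3. *Rsad2* was 1.85 on Day 14 against -1.91 on Day 3 and -1.33 on Day 7. *Ifitm6* was 2.31 on Day 3 and -2.64 on Day 7, *Ms4a6b* 0.42 on Day 7 and -0.63 on Day 3, and the integrin *Itgam* 0.36 on Day 7 and -0.81 on Day 14. *Mki67* was 2.41 on Day 7 and -2.22 on Day 14, where 1 of 2 reference cells held 92.9% of its UMIs.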

How the results depend on the processing

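The 12 higher and 28 lower genes became 25 and 57 with all reference cells, 25 and 55 with no filter on low counts, 7 and 18 with at least 2000 UMIs per cell, 5 and 16 without cells with a UMI of another cell type, 6 and 17 without the 5% of cells with the most UMIs, 3 and 10 with DESeq2, and 0 and 1 with at least 3 *Cx3cr1* UMIs (140 genes at an unadjusted p under 0.05). With at least 1 *Cx3cr1* UMI 19 were higher. With no replicate block both edgeR counts were 0, with 85 genes at an unadjusted p under 0.05, and the block is the pairing of sums from the same library. Leaving out 1 library gave 0 to 40 higher and 8 to 69 lower genes. The genes called were fitted in 38 to 40 cases per alternative and kept their sign in every one of the 14. The causes were not tested. The filter on low counts kept 3014 of the 13882 genes tested without it. Signs changed for genes that did not pass: *Ms4a6b* was -0.03 with no replicate block, -0.17 without Day 7, -0.01 without Day 14 and 0.35 without Day 3. *Ctss* was 0.02 with at least 1 *Cx3cr1* UMI and without other-cell UMIs, 0.17 with at least 3, 0.01 with 2000 UMIs or without the deepest cells, 0.11 at 5% mitochondrial UMIs, and -0.36 to 0.22 with 1 library left out (0.09 without Day 7). *Trem2* was -0.37 without Day 14 and up to 0.55 without another library. *H2-Ab1*, Day 7 to Day 3, was 0.06 with TMM factors and 0.08 as the mean CPM per cell. Thinned shares on Days 3, 7 and 14 were 3.51, 5.36 and 3.39% with at least 1 *Cx3cr1* UMI, 1.22, 2.44 and 1.49% thinned to 2000 UMIs, and 1.90, 3.19 and 1.90% without thinning. Genes higher on Day 7 than on Day 3 numbered 149 with at least 1 UMI, 435 with at least 3, 430 without *Gm42418* and 386 with TMM factors, and 263 were lower with TMM factors. From Day 7 to Day 14, 397 were higher with at least 3 UMIs, and 105, 580 and 418 were lower with at least 1 UMI, at least 3 and without *Gm42418*.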
